A study of Mus musculus with 10 samples.

Results

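The genes described here are 10 genes of the unfolded protein response and of the ATF4 branch of the integrated stress response: Atf4, Atf6, Xbp1, Ddit3, Hspa5, Trib3, Asns, Chac1, Cars and Sesn2. They were taken as a fixed list of symbols from a table of 24736 genes. All 10 were present and among the 18988 genes with enough counts to test. The RNA came from whole eyeballs of Kunming mice, which are outbred. All animals were female, with an age of 4 weeks in the labels. The 3 libraries of the experimental group (blue A, B and C) were from mice kept inside a dark container lit by an 18 W blue lamp, and the 2 libraries of the control group (natural A and B) were from mice in natural light. Titles of all 5 libraries carry day 14, and the labels name no other treatment. Whether a library is 1 animal, 1 eye or a pool is not stated, so the p-values measure the spread between these libraries, which may be technical.

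Cells under endoplasmic reticulum (ER) stress signal through a set of sensors. PERK phosphorylates the initiation factor eIF2, which lowers protein synthesis in general but favours translation of ATF4, a transcription factor that turns on genes for amino acid supply, tRNA charging and, with CHOP, cell death. IRE1 splices the Xbp1 transcript into the form that encodes an active factor, and ATF6 is cut at the Golgi to free its own active part, and both raise ER chaperones such as BiP, the product of Hspa5. Photoreceptors make large amounts of membrane protein in the ER, and misfolded rhodopsin is a known trigger of this response. The deposited values are transcript amounts per gene, so eIF2 phosphorylation, ATF4 translation, Xbp1 splicing and ATF6 cleavage were not measured.

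The stretches of promoter below are shown because, in 4 of the genes, they match the letters of elements that the named factors are known to bind. Matches were found by letters alone, and whether a factor acts through any of these sites was not tested. RefSeq windows (GRCm38.p6, 250 bases before to 50 after the annotated start) were given for 8 of the 10 genes, with no window for Atf6 and Cars. Both strands were searched for the C/EBP-ATF response element that ATF4 binds (CARE, TGATGNAA), the cyclic AMP response element (CRE, TGACGTCA), the unfolded protein response element bound by XBP1 (UPRE, TGACGTGG) and the ER stress response element bound by ATF6 (ERSE, CCAAT followed after 9 bases of any kind by CCACG). None of these motifs overlapped another in the 8 windows. CARE matched in 3 of the 8 windows (Asns, Chac1 and Trib3) and in 3.97% of all 32851 windows, and ERSE matched in 1 (Hspa5) and in 0.119% of all. CRE and UPRE matched in 0 of the 8, and in 1.79% and 0.676% of all windows. Each sequence runs 5′ to 3′ on the strand of its gene, with the match in capitals. For Asns, chr6:7693210-7693269 on the minus strand, the match begins 23 bases before the start. For Chac1, chr2:119351023-119351082 on the plus strand, it begins 193 bases before the start and reads as CARE on the opposite strand. For Trib3, chr2:152344028-152344057 on the minus strand, it begins at position 15 counting the annotated start as 1, again on the opposite strand. The 250 bases before the Hspa5 start (chr2:34771840-34772089, plus strand) hold an ERSE that begins 65 bases before it. The 250 bases before the start of Atf4 (chr15:80254934-80255183, plus strand) hold none of the motifs.
Asns: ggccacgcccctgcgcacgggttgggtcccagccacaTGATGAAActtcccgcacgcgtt
Chac1: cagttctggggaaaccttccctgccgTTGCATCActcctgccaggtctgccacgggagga
Trib3: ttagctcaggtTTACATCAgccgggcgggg
Hspa5: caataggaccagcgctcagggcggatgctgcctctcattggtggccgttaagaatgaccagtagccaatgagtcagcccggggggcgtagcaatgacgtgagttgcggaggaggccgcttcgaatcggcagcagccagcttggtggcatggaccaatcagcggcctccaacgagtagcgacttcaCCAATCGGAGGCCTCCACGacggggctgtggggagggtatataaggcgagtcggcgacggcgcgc
Atf4: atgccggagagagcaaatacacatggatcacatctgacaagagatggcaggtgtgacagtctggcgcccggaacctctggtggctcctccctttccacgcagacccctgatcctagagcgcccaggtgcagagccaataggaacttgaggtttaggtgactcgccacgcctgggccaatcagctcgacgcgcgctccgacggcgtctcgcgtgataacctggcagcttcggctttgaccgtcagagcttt

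Of the 10 genes, 2 fell under blue light, the transcription factor Atf4 and the cysteinyl-tRNA synthetase Cars, and 0 rose. The fold changes were modest, 1.35-fold lower for Atf4 and 1.41-fold lower for Cars. The other 8, among them the CHOP gene Ddit3, the chaperone Hspa5 and the ATF4 target genes Asns, Trib3, Chac1 and Sesn2, did not pass the test. Over all 18988 genes 2.22% passed, 0.664% higher and 1.55% lower under blue light, so 2 of 10 stood above that share. The test was edgeR's quasi-likelihood F-test with Benjamini-Hochberg adjustment over all tested genes and a threshold of 0.05. An unadjusted p under 0.05 was reached by 3 of the 10, with Hspa5 the only one in the upward direction, and by 16.3% of all genes. DESeq2 and limma-voom each called 2 of them lower and 0 higher, where DESeq2 called 9.67% and limma-voom 2.41% of the genes for which each gave an adjusted p.

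**Figure D1:**
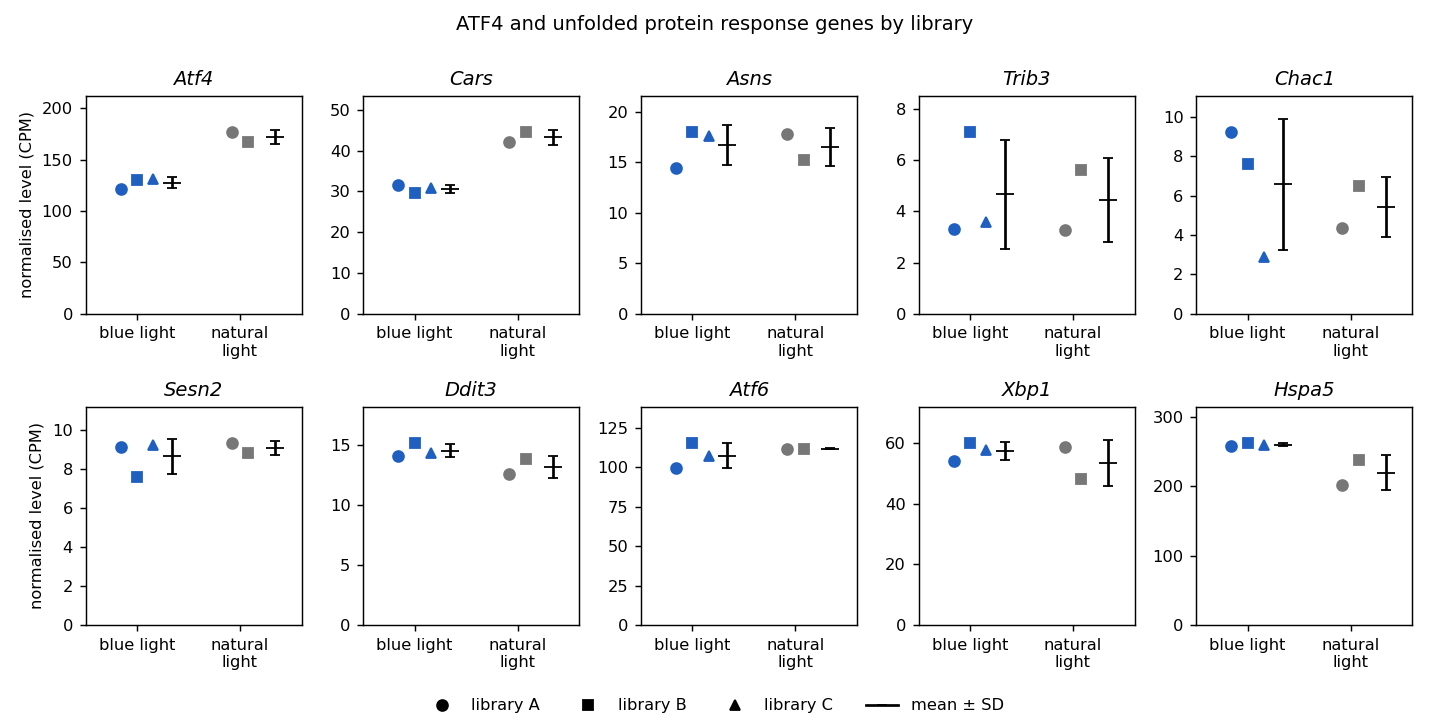
Level of each gene in each library, in TMM-normalised CPM (library-scaled counts, axes from 0 up), with blue light left of natural light, 1 symbol per library and the mean ± SD (n = 3 blue and 2 natural) beside it. The 3 blue libraries of Atf4 lie between 121 and 131 CPM, below both natural-light libraries, and those of Cars between 29.6 and 31.6 CPM, also below both.

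Atf4 (chr15:80255184-80257545) encodes the factor through which eIF2 phosphorylation acts on transcription. It stood at 121, 131 and 131 CPM in blue A, B and C, against 177 and 168 CPM in natural A and B. All blue libraries lay below both natural-light libraries. The means were 128 ± 5.44 CPM under blue light and 172 ± 6.61 CPM in natural light (SD, n = 3 and 2), which made the log2 fold change -0.43 (SE 0.072), with an edgeR adjusted p of 0.0479. Its p ranked 402 among all genes, close to the last of the 421 that passed.

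Cars (chr7:143557230-143600090) charges cysteine tRNA and is a target gene of ATF4. It stood at 31.6, 29.6 and 30.8 CPM in blue A, B and C, against 42.0 and 44.6 CPM in natural A and B. Here too the groups did not overlap. The means were 30.6 ± 0.988 CPM under blue light and 43.3 ± 1.82 CPM in natural light (SD, n = 3 and 2), which made the log2 fold change -0.50 (SE 0.077), with an edgeR adjusted p of 0.0392. In absolute size, the changes of Atf4 and Cars lay at the 77.9th and 81.5th percentile of absolute log2 fold change over all tested genes.

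Both calls were near the threshold. With 1 blue library left out, neither gene passed in edgeR. Fewer of all genes passed too: 311, 277 and 11 without blue A, B and C, against 421 as reported. The adjusted p then ran from 0.101 to 0.172 for Atf4 and from 0.0876 to 0.162 for Cars. Leaving out a natural-light library leaves 1 in that group, so only the fold change is given for it. With any 1 of the 5 libraries left out, the log2 fold change stayed between -0.47 and -0.37 for Atf4 and between -0.52 and -0.45 for Cars.

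**Figure D2:**
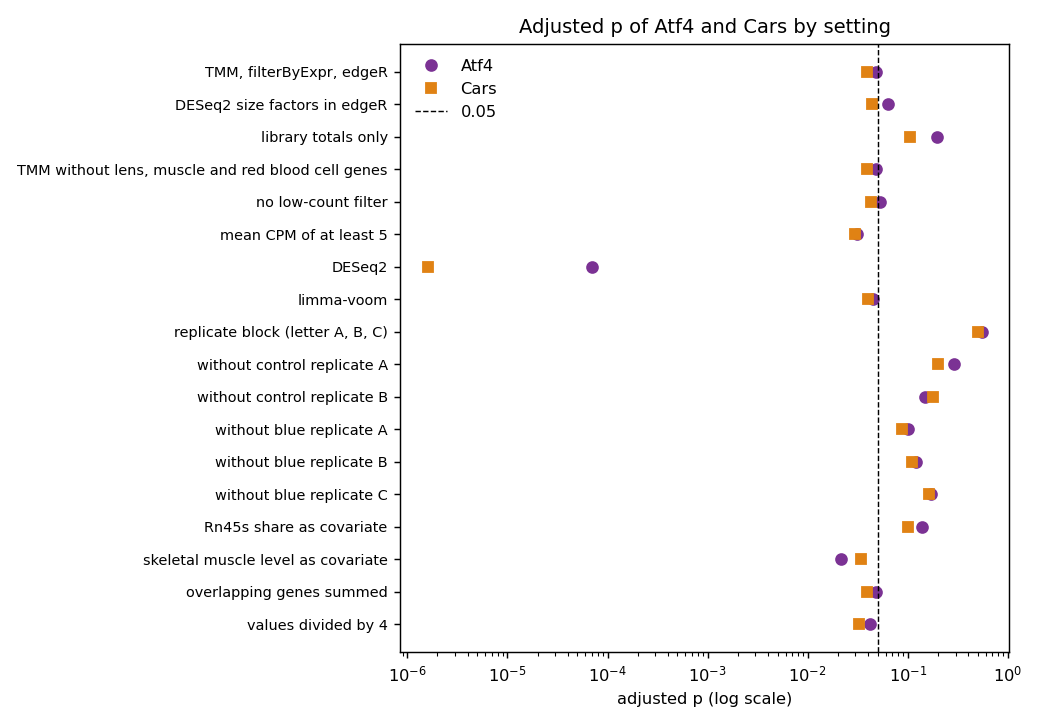
Adjusted p (log axis) of Atf4 and Cars under each way of processing, with the threshold of 0.05 as a dashed line. Both lie left of the line as reported, and every setting that leaves out 1 library puts both to its right. In those settings fewer of all tested genes passed as well.

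In bulk tissue, fewer cells of a type and less RNA per cell cannot be told apart. Rod photoreceptor markers moved with these 2 genes: 10 of 12 fell, and their summed level was 4585 to 8461 CPM in the blue libraries and 23990 to 25268 CPM in the natural-light libraries, with no marker at 0. Genes listed as markers of reactive glia (Gfap, Serpina3n, Lcn2, Cp, Socs3, Edn2, Stat3 and Osmr) moved the other way, with 8 of 8 higher. Their summed level was 1197 to 1249 CPM under blue light and 368 to 371 CPM in natural light. Cp alone held 490 to 527 CPM of that sum under blue light, and 195 and 182 CPM in natural A and B. Both lists were chosen with earlier results of these data known. The part of either cell type in the values of Atf4 and Cars was not tested.

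The remaining ATF4 target genes among the 10 split into steady and variable ones. Asns (chr6:7675165-7693209), asparagine synthetase, stood at 14.4, 18.0 and 17.6 CPM in blue A, B and C, against 17.8 and 15.2 CPM in natural A and B. Its groups overlapped, with a log2 fold change of 0.015 (adjusted p = 0.973, 95% interval -0.34 to 0.37). Sesn2 (chr4:132492804-132510456), sestrin 2, a stress-induced inhibitor of mTORC1 signalling, stood at 9.09, 7.58 and 9.23 CPM in the blue libraries, against 9.31 and 8.81 CPM in the natural-light libraries. Natural A was the highest of the 5 libraries and natural B lay inside the blue range, and the log2 fold change was -0.070 (adjusted p = 0.864, interval -0.42 to 0.28). These intervals come from edgeR's standard error and are not adjusted for the number of genes.

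Trib3 and Chac1 varied more among libraries of the same group than between groups. Trib3 (chr2:152337425-152344060), a pseudokinase induced by ATF4 and CHOP, stood at 3.30, 7.11 and 3.59 CPM in blue A, B and C, against 3.28 and 5.61 CPM in natural A and B. It was high in the B library of each group and low in the others. Within the blue group the highest library was 2.16-fold above the lowest, and within the natural-light group 1.71-fold. The log2 fold change was 0.072 (adjusted p = 0.959, interval -0.96 to 1.10). Chac1 (chr2:119351242-119354326), which degrades glutathione, stood at 9.23, 7.61 and 2.87 CPM in blue A, B and C, against 4.34 and 6.51 CPM in natural A and B. Blue A was the highest of the 5 libraries and blue C the lowest, a 3.22-fold range within the blue group. Its log2 fold change of 0.28 (adjusted p = 0.843) had an interval of -0.94 to 1.5.

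Ddit3 (chr10:127290793-127296291) encodes CHOP, the factor linked to cell death under lasting ER stress. It stood at 14.1, 15.2 and 14.3 CPM in blue A, B and C, against 12.6 and 13.8 CPM in natural A and B. As deposited the groups did not overlap, but the gap was small: the log2 fold change was 0.14 (adjusted p = 0.581, interval -0.12 to 0.40). The annotated span of Ddit3 overlaps that of Mbd6, which stood at 71.2 ± 4.09 CPM under blue light and 80.6 ± 8.64 CPM in natural light (SD, n = 3 and 2). Whether counting used strand is not stated, and with both genes summed the log2 fold change was -0.13, so no direction is given for Ddit3.

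Hspa5 (chr2:34772090-34776529), the gene of the ER chaperone BiP whose ERSE is printed above, stood at 258, 262 and 260 CPM in blue A, B and C, against 203 and 237 CPM in natural A and B. All blue libraries lay above both natural-light libraries and close to each other, with a 1.02-fold range against 1.17-fold in natural light. The means were 260 ± 2.12 and 220 ± 24.7 CPM (blue and natural light, SD, n = 3 and 2). The log2 fold change of 0.24 (SE 0.087) had an unadjusted p of 0.0320 and an adjusted p of 0.248 in edgeR, and it did not pass. Without natural A it was 0.16, and without natural B it was 0.36, which made the size of the gap depend on which natural-light library was kept. Groups without overlap, as in 4 of the 10 genes (Atf4, Cars, Hspa5 and Ddit3), occurred in 35.6% of all tested genes. With overlapping genes summed they were 3, without Ddit3.

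The 2 other transcription factors of the response had overlapping groups. Atf6 (chr1:170704457-170868585) stood at 99.9, 115 and 107 CPM in blue A, B and C, against 112 and 112 CPM in natural A and B. The natural-light values fell inside the blue range, and the log2 fold change was -0.056 (adjusted p = 0.802, interval -0.26 to 0.15). Xbp1 (chr11:5520641-5525993), counted over spliced and unspliced forms together, stood at 54.1, 59.98 and 57.8 CPM in the blue libraries, against 58.8 and 48.1 CPM in the natural-light libraries. Its log2 fold change was 0.10 (adjusted p = 0.720, interval -0.17 to 0.37), and all blue values lay above natural B but only blue B above natural A.

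**Figure D3:**
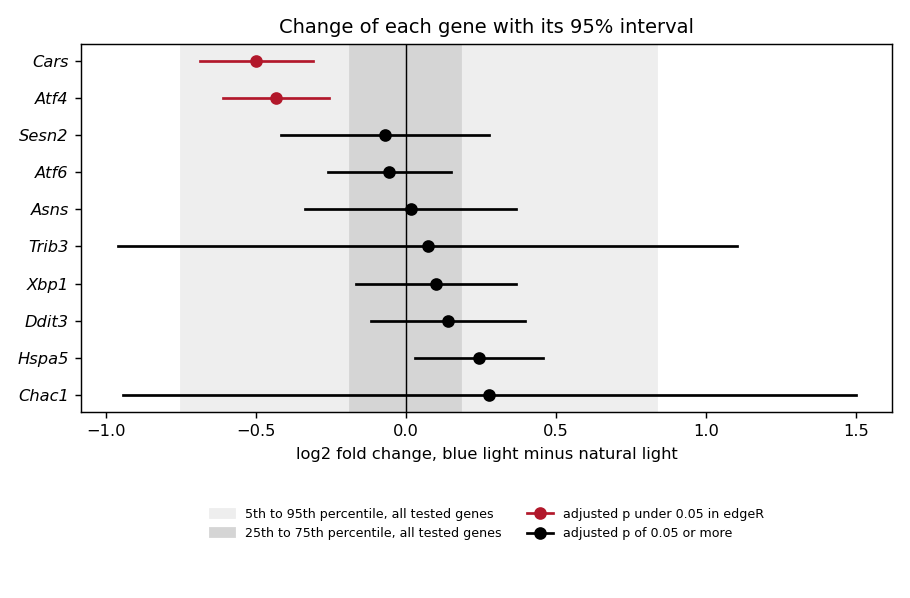
Log2 fold change of each gene (blue light minus natural light, points) with its 95% interval from edgeR (lines), over bands for the 5th to 95th and the 25th to 75th percentile of all tested genes. Only Cars and Atf4 are marked as passing the threshold, and the intervals of Trib3 and Chac1 are the widest of the 10.

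Over the 10 genes the median log2 fold change was 0.044, against -0.0056 over all tested genes, with 6 above and 4 below 0. With overlapping genes summed, a count added after seeing the data, the median was -0.020, with 5 above and 5 below 0, so no common direction is given. Their median absolute log2 fold change was 0.12, against 0.18 over all tested genes. The genes did not share a pattern over the libraries. Subtracting each gene's mean log2 CPM, Atf4 deviated by -0.25, -0.14 and -0.14 in blue A, B and C and by 0.30 and 0.22 in natural A and B, and Cars by -0.16, -0.25 and -0.19 and by 0.26 and 0.34. For the other genes the deviations crossed between groups or had the opposite direction.

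**Figure D4:**
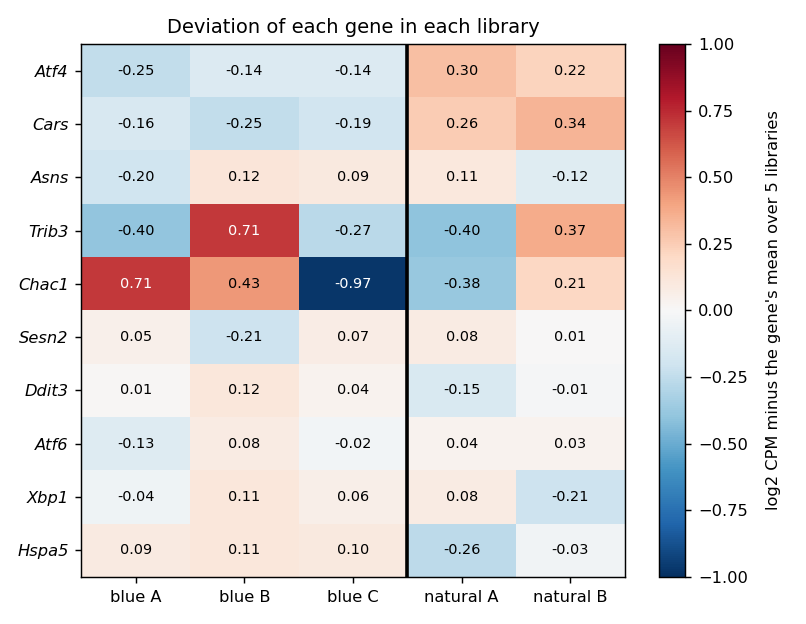
Deviation of each gene's log2 CPM from its own mean over the 5 libraries, with blue light left of the black line and natural light right of it. Atf4 and Cars are negative in all blue libraries and positive in both natural-light libraries, while Trib3 and Chac1 show the largest deviations of the 10 (up to 0.71 and down to -0.97) within the blue group.

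Among tested genes with symbols not of the Gm or Rik form, Cdkl3 (0.029), Cpe (0.036) and Atp11b (0.040) had the profiles nearest to that of Atf4. The distance was Euclidean, on the same centred values over the 5 libraries. For comparison, Cars lay at 0.20, and the remaining genes of the set lay between 0.42 and 1.55 from Atf4. Cpe, carboxypeptidase E, which trims peptide hormone precursors, stood at 277, 305 and 298 CPM in blue A, B and C, against 413 and 390 CPM in natural A and B. With 5 libraries in 2 groups many genes share such a profile, and the distance describes these libraries.

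The ratio of each gene to Atf4 within a library does not depend on how libraries are scaled. Of the 9 other genes, 6 (Atf6, Xbp1, Ddit3, Hspa5, Asns and Sesn2) had ratios above those of natural light in every blue library, close to the 64.8% of all tested genes that did, and a gene needs only a smaller fall than that of Atf4 to be counted. Hspa5 had the widest gap, at 2.13, 2.01 and 1.99 times the Atf4 CPM in blue A, B and C, against 1.14 and 1.42 in natural A and B. The ratio of Cars to Atf4 overlapped between groups, at 0.260, 0.227 and 0.235 in the blue libraries and 0.237 and 0.266 in the natural-light libraries. The ratio of Ddit3 is open to the same overlap with Mbd6. The ratios were chosen after the values were seen, compare counts and not molecules, and were not tested.

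Other genes of the pathway were taken as 5 lists of 88 tested genes in all, of which 1 rose and 1 fell, close to the 2.22% of all genes that passed. An unadjusted edgeR p below 0.05 was reached by 17 of the 88, where 16.3% of all genes reached it, and the counts at that p for each list stand against the same share. Both calls were among 27 further target genes of ATF4. Slc7a11, the cystine transporter, rose by 0.98 (SE 0.090, adjusted p = 0.0172 in edgeR), with 63.8, 73.6 and 68.8 CPM in blue A, B and C, against 34.3 and 35.6 CPM in natural A and B. Vldlr, a lipoprotein receptor, fell by 0.84 (SE 0.12, adjusted p = 0.0308), with 153, 186 and 177 CPM in the blue libraries, against 335 and 283 CPM in the natural-light libraries. Of the 27, 9 had an edgeR p below 0.05 before adjustment, 6 upward and 3 downward, a larger share than the 16.3% of all genes. DESeq2 called 3 of them higher and 3 lower, also a larger share than its 9.67% of all genes, and limma-voom 1 and 1. Whether this list differed from all genes was not tested. The median log2 fold change of the 27 was 0.13, with 17 above 0. Slc7a11 and Vldlr moved in opposite directions, and each is known to be controlled by other factors as well as ATF4. Without blue C, 0 of the 88 passed in either direction, where 11 of all 18826 genes tested there passed. Without blue B, 2 were higher and 0 lower, where 277 of all 18714 passed.

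Among 11 genes for the sensors and the control of eIF2, 0 passed in edgeR and 0 in limma-voom, while DESeq2 called 1. An unadjusted edgeR p below 0.05 was reached by 2, both upward, about the share of all genes. The smallest p belonged to Eif2ak2, the eIF2 kinase activated by double-stranded RNA, which stood at 104, 44.5 and 82.8 CPM in blue A, B and C, against 26.7 and 35.8 CPM in natural A and B. Its log2 fold change was 1.31 (SE 0.37, adjusted p = 0.166), and blue B lay much nearer to the natural-light libraries than the other blue ones. Without blue B it was 1.6 and Eif2ak2 passed in edgeR (adjusted p = 0.0403), with a range of 0.00152 to 0.669 over its alternatives. Eif2ak3, the gene of PERK, stood at 51.4, 59.7 and 52.5 CPM against 47.4 and 45.4 CPM (blue and natural light), with a log2 fold change of 0.23 (adjusted p = 0.301). The list's median was 0.031.

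Cars was the only cytosolic aminoacyl-tRNA synthetase gene tested here that passed. Of the 19 others 0 passed in edgeR and 0 in limma-voom, while DESeq2 called 1. Those with an unadjusted edgeR p below 0.05 numbered 2, both downward. Iars, the isoleucyl-tRNA synthetase, stood at 67.2, 68.8 and 69.0 CPM in blue A, B and C, against 82.2 and 81.8 CPM in natural A and B. Its log2 fold change was -0.26 (adjusted p = 0.130), and that of Mars, the methionyl-tRNA synthetase, was -0.40 (adjusted p = 0.169). The 19 had a median of -0.050, with 13 below 0, and whether Cars differed from them was not tested.

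Of 17 ER chaperones and folding enzymes 0 passed in edgeR and 0 in limma-voom, while DESeq2 called 1. Before adjustment 3 had an edgeR p below 0.05, all upward, which is about the share of all genes. Pdia6, a protein disulphide isomerase, stood at 84.4, 89.6 and 82.9 CPM in blue A, B and C, against 66.6 and 75.7 CPM in natural A and B. Pdia6 had a log2 fold change of 0.27 (adjusted p = 0.216), and its relative Pdia3 one of 0.25 (adjusted p = 0.258). The list's median was 0.10, with 11 above 0. The 14 genes of ER-associated degradation had a median of -0.013. By edgeR, DESeq2 and limma-voom alike 0 passed, and before adjustment Derl3 alone had an edgeR p below 0.05, downward. Derl3, a retrotranslocation factor, had a log2 fold change of -0.63 (adjusted p = 0.263) at 1.5, 1.69 and 1.47 CPM under blue light, against 2.69 and 2.13 CPM in natural light. Syvn1, the ubiquitin ligase HRD1, had one of -0.14 (adjusted p = 0.418).

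**Figure D5:**
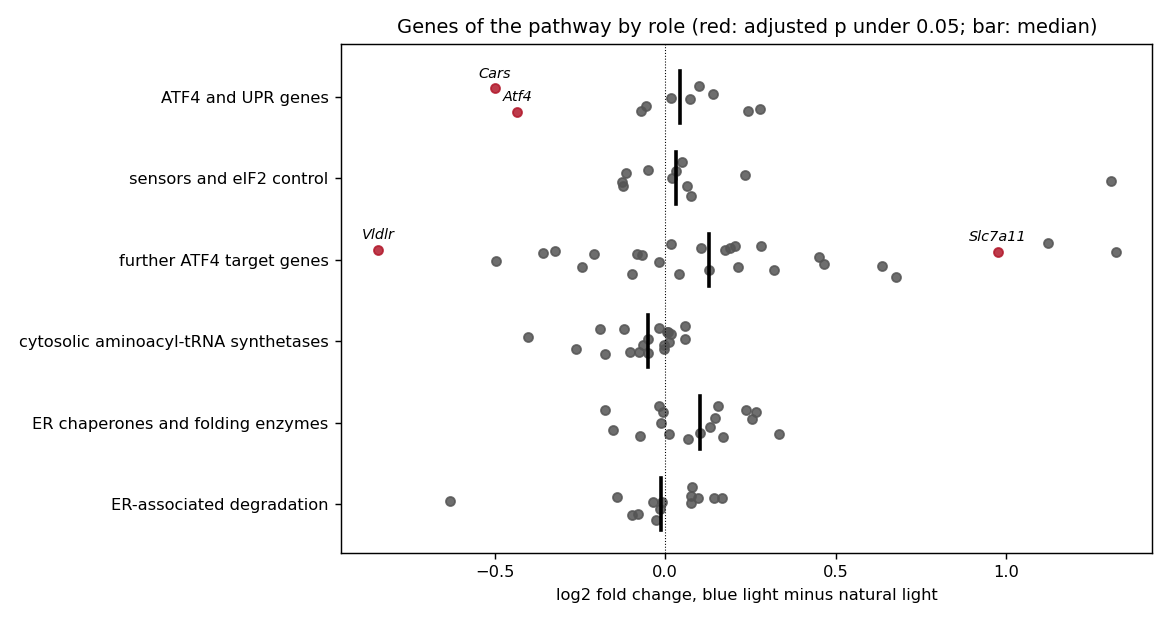
Log2 fold change (blue light minus natural light) of the 10 genes and of the 5 further lists, 1 point per tested gene, with red points past the threshold in edgeR and a bar at each list's median. The 6 medians lie between -0.050 and 0.13, and the red points are Cars, Atf4, Vldlr and Slc7a11.

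Library totals ran from 87071487 to 107660103 estimated counts. Rn45s, the ribosomal RNA precursor, took 8.69% to 14.4% of the blue libraries and 4.30% and 14.1% of natural A and B. With that share as a covariate, Atf4 had an adjusted p of 0.138 and Cars one of 0.101 in edgeR. Only 14 of all genes passed there, against 421 as reported. The log2 fold changes were then -0.42 for Atf4 and -0.52 for Cars, close to those reported. Lens markers, from a tissue that belongs to the eyeball, summed to 32935 to 34466 CPM under blue light and 32701 and 32892 CPM in natural light, and 0 of 8 passed. Secretory gland markers, from cells with a large ER, summed to 412 to 443 CPM under blue light and 389 and 479 CPM in natural light. Of 5 tested genes 0 passed, and Pip was at 0 in every library. Nearly all of that sum was Aqp5, at 407 to 434 CPM under blue light and 385 and 472 CPM in natural light. No other gland marker exceeded 4.27 CPM in any library, so the sum says little about the amount of gland tissue. Skeletal muscle markers summed to 522 to 1057 CPM under blue light and 502 and 1048 CPM in natural light. With their level as a covariate both Atf4 (adjusted p = 0.0216) and Cars (adjusted p = 0.0340) passed in edgeR, where 851 of all genes passed.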

How the data were processed

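Eyeball RNA was sequenced after ribosomal RNA removal and random priming, per the labels' protocols. Tools listed in the submitters' processing notes are HISAT2, StringTie, bcl2fastq 2.0, limma and DESeq2, with mm10 as build and no role for any. The deposited mRNA table was read as holding estimated counts for each symbol, without normalisation. Its values are whole numbers, so rounding changed nothing. Low values are uneven (751 equal 3, 1051 equal 4, 1107 equal 5 and 580 equal 6), so 1 unit may not be 1 read, and no counting intervals are given. All 5 columns matched a sample by title. The miRNA table was not used here.

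The 3 blue and 2 natural-light libraries were compared with edgeR 4.0.16 in R 4.3.3 (TMM, filterByExpr, quasi-likelihood F-test, Benjamini-Hochberg over 18988 genes). CPM are TMM-normalised, and log2 CPM use a prior count of 2. The SE is the absolute log2 fold change divided by the square root of F. Alternatives included DESeq2 1.42.0 and limma-voom (limma 3.58.1). The pipeline was tested on simulated data. Lists named, besides the members, up to 3 passing genes of smallest p per direction, or else the 2 of smallest p. Members, lists and tests were chosen with earlier results of these data known. Further marker lists (Muller glia, pigment epithelium, adipocyte, red blood cell, microglia and macrophage, plasma cell, corneal epithelium, fibroblast) had 2, 0, 1, 0, 0, 0, 0 and 0 genes higher and 0 lower. Of the 7 microglia and macrophage markers none passed, but all 7 had a log2 fold change above 0, with a median of 1.07. Before adjustment 4 of the 7 had an edgeR p below 0.05. Positions are from RefSeq (GRCm38.p6, the assembly called mm10).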

Additional observations from a re-analysis of the deposited data

How the results depend on the processing

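Over 17 alternatives, Atf4 and Cars were lower under blue light in all, with log2 fold changes of -0.47 to -0.37 and -0.52 to -0.45, and passed in 7 and 9 (adjusted p 6.97e-05 to 0.545 and 1.61e-06 to 0.498, the lowest in DESeq2). Hspa5 was higher in all (0.16 to 0.36) and passed in 0. Of the 10 genes, 1 was called lower with DESeq2 size factors in edgeR, 1 with no low-count filter, 0 with library totals only, 0 with the Rn45s share as covariate, 0 with a log2 fold change of 1 or more in size also required, and 0 to 0 with 1 library left out, against 2 as reported. The cause was not tested, except that the fold requirement drops both by construction. The log2 fold change of Asns was -0.029 with the skeletal muscle level as covariate, and -0.095 to 0.16 with 1 library left out. That of Ddit3 was -0.13 with overlapping genes summed. With 1 library left out, Atf6 ran from -0.089 to 0.011, Sesn2 from -0.12 to 0.036, Xbp1 from -0.037 to 0.28, Chac1 from -0.030 to 0.64 and Trib3 from -0.34 to 0.51. Of all genes, 421 passed as reported, 1729 in DESeq2, 274 with library totals only (45.3% of them higher, against 29.9%), 198 with that fold requirement, 14 with the Rn45s share, 851 with the skeletal muscle level, and 0 to 311 with 1 library left out. The 0 was without natural B, and there 2872 had an edgeR p below 0.05 before adjustment. Of the 88 pathway genes, DESeq2 called 5 higher and 4 lower, the muscle covariate 2 higher, the Rn45s share 0 and 0, the fold requirement 0 and 0, library totals only 0 lower, and leaving out 1 library 0 to 2 higher and 0 to 1 lower, against 1 and 1 as reported. Dividing the values by 4, added after seeing the data, called 483 genes and left both Atf4 (adjusted p = 0.0417) and Cars (0.0328) passing in edgeR.

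With the library letter as a replicate block, 0 genes passed in edgeR (1455 at an unadjusted p under 0.05), so 0 of the 10 and 0 of the 88 were called, and the log2 fold change of Asns was -0.031. The labels do not state that libraries of the same letter belong together. Same-letter deviations correlated at -0.18 for A and -0.15 for B. In a group of 2 libraries the deviations of A and B mirror each other, so these values cannot decide whether a letter marks a shared batch. The block is therefore no test of the size of an effect. With 3 and 2 libraries, a p that misses the threshold does not show that a gene did not differ.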
